A study of Mus musculus with 18 samples.

Results

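The interferon regulatory factors (IRFs) are a family of DNA-binding proteins that switch on interferon genes and the genes that interferons induce. Irf1, Irf2, Irf3, Irf4, Irf5, Irf7, Irf8 and Irf9 were chosen from a list of mouse symbols, 8 of the 24052 genes counted, and all 8 were found in both count tables. Their mRNA was measured by sequencing from the 3′ end in macrophages grown from the bone marrow of C57BL/6 mice with 20 ng/ml M-CSF, in 18 libraries of 2 experiments. Experiment 1 held 4 groups of 3 libraries, all from wild-type cells. The DI plus LPS group received 0.25 mM dimethyl itaconate (DI), an ester of the metabolite itaconate, for 12 h and then 100 ng/ml bacterial lipopolysaccharide (LPS) for 4 h. The LPS group received vehicle and then the same LPS dose for 4 h. The DI group received DI with no LPS, and the vehicle group received neither. Experiment 2 compared 3 libraries of Irg1-/- cells with 3 libraries of wild-type cells. Both of its groups carried 100 ng/ml LPS together with 50 ng/ml interferon gamma (IFNg) for 24 h, and neither received DI. Irg1, listed here as Acod1, encodes the enzyme that makes itaconate, so experiment 2 removes the cell's own itaconate whereas experiment 1 adds a synthetic ester from outside.

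IRFs share a DNA-binding domain that reads GAAA repeats in the promoters of interferon-stimulated genes. IRF3 and IRF7 are phosphorylated after Toll-like receptor and nucleic acid sensing and induce interferon beta, and IRF9 is part of the complex ISGF3, which carries the type I interferon signal. IRF1 is itself induced by inflammatory signals and interferon gamma, IRF2 binds the same elements and often restrains IRF1, IRF5 drives inflammatory cytokines, IRF8 pairs with PU.1 in myeloid cells, and IRF4 is linked with alternative macrophage activation.

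The 250 bases before the transcription start of Irf1, Irf2 and Irf8 are shown because these members matched at least 1 of 3 searched motifs. Irf8 and Irf2 were also the members that edgeR's quasi-likelihood test called lower with DI plus LPS than with LPS. Irf1 and Irf7 were 1.72-fold and 2.01-fold lower there but missed the threshold of that test (adjusted p = 0.056 and 0.083). The sequences are RefSeq, build GRCm38.p6, + strand, written 5′ to 3′ with every motif match in capitals, at chr11:53769764-53770013 for Irf1, chr8:46739495-46739744 for Irf2 and chr8:120736108-120736357 for the first start of Irf8.
Irf1: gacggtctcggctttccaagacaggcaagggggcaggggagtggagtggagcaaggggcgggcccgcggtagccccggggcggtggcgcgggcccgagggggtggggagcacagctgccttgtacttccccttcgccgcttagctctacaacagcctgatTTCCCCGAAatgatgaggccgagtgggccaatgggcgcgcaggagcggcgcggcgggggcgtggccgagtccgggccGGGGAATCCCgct
Irf2: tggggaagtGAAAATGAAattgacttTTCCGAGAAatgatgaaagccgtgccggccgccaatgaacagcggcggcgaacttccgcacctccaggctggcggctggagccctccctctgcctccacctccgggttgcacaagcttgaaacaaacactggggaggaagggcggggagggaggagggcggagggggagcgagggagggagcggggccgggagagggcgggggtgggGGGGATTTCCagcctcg
Irf8: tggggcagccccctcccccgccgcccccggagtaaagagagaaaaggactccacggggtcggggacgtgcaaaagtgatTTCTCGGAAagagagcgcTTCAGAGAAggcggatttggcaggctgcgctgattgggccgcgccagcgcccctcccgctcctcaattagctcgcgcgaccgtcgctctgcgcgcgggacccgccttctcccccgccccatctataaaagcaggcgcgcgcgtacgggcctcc

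The motifs, searched on both strands from 250 bases before to 50 bases after each start, were an interferon-stimulated element (GAAANNGAA), the STAT-type element of interferon gamma response (TTCNNNGAA) and the NF-kB motif. They were found in 8.56%, 8.30% and 4.51% of the 32851 windows of all genes, in that order. The 8 members had 11 windows. Irf1 held TTCCCCGAA at bases -90 to -82 and an NF-kB match at -13 to -4, counted from the start. Irf2 held GAAAATGAA at -241 to -233, TTCCGAGAA at -224 to -216 and an NF-kB match at -17 to -8, so it was the member in which all 3 motifs were found. Irf8 held a pair of STAT-type matches, TTCTCGGAA at -171 to -163 and TTCAGAGAA at -153 to -145. No match was found in the windows of Irf3, Irf4, Irf5, Irf7 and Irf9. These matches describe letters, and no binding was measured.

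Library totals were 955718 to 7629669 counts in experiment 1 and 3088644 to 5491684 in experiment 2. Levels are given as CPM, a gene's count over the TMM-scaled size of its library. LPS replicate 3 was the shallowest library, with 955718 counts, and stood apart: its log2 CPM correlated with the other LPS libraries at r = 0.777 and 0.758, against 0.867 between those 2 and 0.927 to 0.967 among replicates of the other groups of experiment 1 and of experiment 2. Results that rest on it are given with and without it. The labels do not say that replicates came from separate mice or cultures, so p-values measure the spread between these libraries, and in bulk RNA fewer cells of a type and less RNA per cell cannot be told apart. The knockout label was checked with Acod1, at 28.5, 14.9 and 31.5 CPM in Irg1-/- libraries and 4142, 4677 and 4237 CPM in wild-type libraries, a log2 difference of -7.43 ± 0.32 (SE, adjusted p = 4.8e-07) by edgeR's quasi-likelihood test with Benjamini-Hochberg adjustment, which gave all log2 values, SEs and adjusted p-values unless another tool is named. The 15 macrophage markers listed summed to 6331 to 21020 CPM in every library of experiment 1 and 5109 to 6111 CPM in experiment 2, with Cd163 at 0 in the LPS group and in both groups of experiment 2. In experiment 1 this sum was 7498 to 9813 CPM with DI plus LPS and 6331 to 7909 with LPS. It was 12992 to 14436 with DI and 18519 to 21020 with vehicle. On these unscaled totals the sum was lower in each treated group than with vehicle. TMM factors were 1.47, 1.32 and 1.43 with vehicle and 0.803, 0.776 and 0.576 with LPS. TMM-scaled marker sums were not computed. The 7 counted B and plasma cell markers of 8 listed summed to 22.4 to 34.2 CPM with DI plus LPS, 9.42 to 20.5 with LPS, 44.5 to 73.4 with DI and 31.8 to 47.9 with vehicle, with Pax5 at 0 in every library. The 10 T and NK cell markers summed to 0.503 to 1.70 CPM with DI plus LPS and 6.97 to 15.4 with LPS. They summed to 1.05 to 1.57 with DI and 4.71 to 7.18 with vehicle, and Cd3e and Cd8a were at 0 in all 4 groups of experiment 1. The 12 counted neutrophil and progenitor markers of 13 summed to 303 to 434 CPM with DI plus LPS, 156 to 308 with LPS, 386 to 589 with DI and 404 to 577 with vehicle. The part of these cell types in the results was not tested.

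LPS alone raised 6 of the 7 members that could be tested, Irf1, Irf2, Irf5, Irf7, Irf8 and Irf9, and Irf3 did not pass the test; with library totals the Irf9 value was log2 -0.02. Among all 10285 genes tested, 16.0% were called higher and 18.4% lower at an adjusted p under 0.05 (1641 and 1888 genes; 853 and 4950 when libraries were scaled by their totals alone). Set against LPS alone, edgeR called 2 members lower with DI plus LPS, Irf8 and Irf2. Among all genes 8.38% were higher and 7.53% lower (862 and 774 genes, and 901 and 527 with library totals). DESeq2 called 4 members and voom 3, with 1111 and 729 of all genes lower, and the Irf2 call was lost with library totals. For DI without LPS edgeR called 1 member lower, Irf7, against 1.33% higher and 1.51% lower among all genes (137 and 155, and 72 and 194 with library totals). DESeq2 and voom each called 2 members, with 351 and 762 of all genes lower. In cells that had DI, LPS raised 4 members, Irf1, Irf2, Irf7 and Irf9, against 11.4% of all genes higher and 7.56% lower (1170 and 778; 709 and 2027 with library totals). The same 4 members were higher with DI plus LPS than with vehicle, against 13.6% of all genes higher and 11.0% lower (1398 and 1130; 703 and 3390 with library totals). The response to LPS differed between DI-treated and vehicle-treated cells for 1 member, Irf8, which was lower (2 by DESeq2, which also called Irf2). Among all genes 1.39% had a higher and 1.52% a lower interaction term (143 and 156). These numbers were 424 and 392 by DESeq2, and 215 and 86 with library totals. For DI plus LPS against DI, DESeq2 called 4 members and voom 6, with 2607 and 3657 of all genes. Against vehicle the members called were again 4 and 6, with 3238 and 4506 of all genes. Irf4 had too few counts to be tested in either experiment, so counts over the 7 that passed do not describe the whole family.

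**Figure D1:**
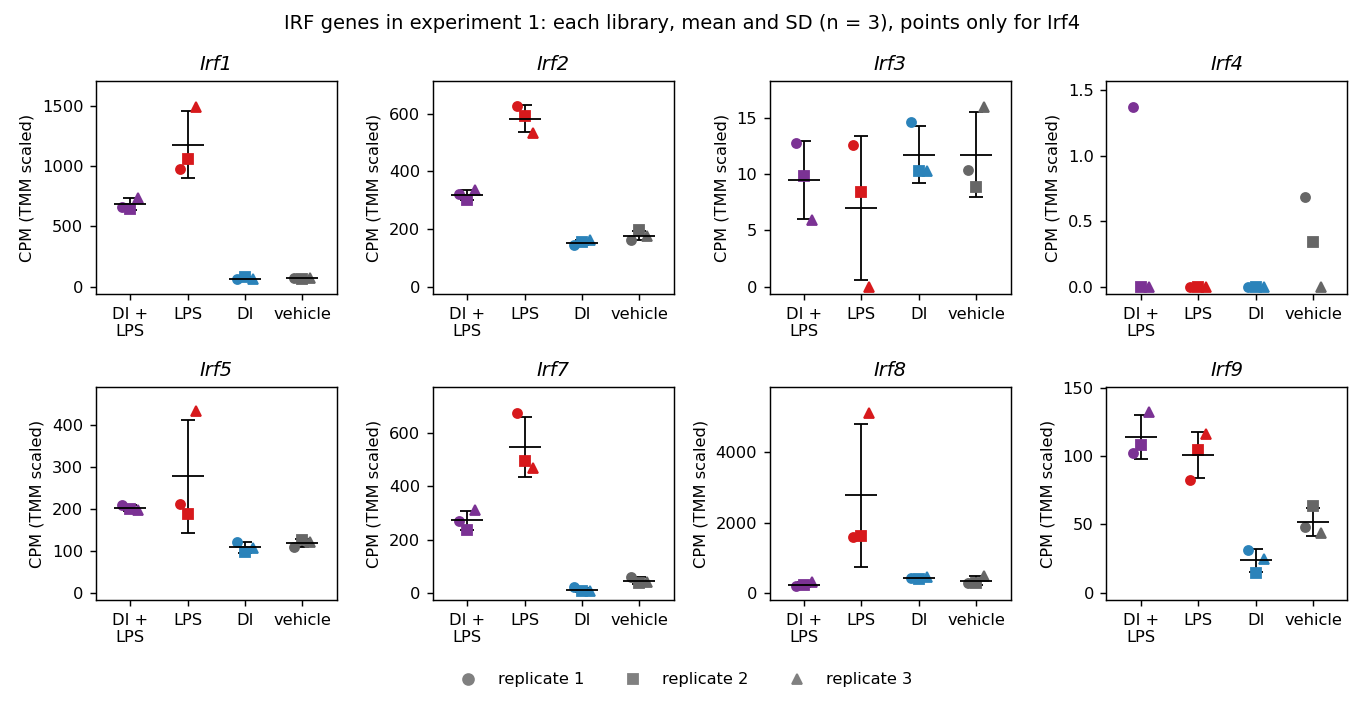
Level of each IRF gene in the 12 libraries of experiment 1, in CPM on a linear axis, with DI plus LPS, LPS, DI and vehicle from left to right; points are libraries, the horizontal bar and whiskers are the mean and SD (n = 3), and Irf4 has points only. Irf8 was high in the LPS group alone (1588 to 5127 CPM), while the libraries of Irf1, Irf2, Irf5, Irf7 and Irf9 lay above those of vehicle in both groups that received LPS. Of these, Irf5 with DI plus LPS against vehicle did not pass the test (log2 0.77, adjusted p = 0.078, and -0.01 with library totals), and Irf9 with LPS against vehicle was -0.02 with library totals. How many of all genes are separated in this way was not computed.

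Irf8, the partner of PU.1 in macrophages and dendritic cells, had the largest interaction of DI and LPS among the members. It stood at 180, 208 and 308 CPM with DI plus LPS, at 1588, 1610 and 5127 CPM with LPS, at 417, 387 and 451 CPM with DI and at 277, 283 and 485 CPM with vehicle. Every LPS library lay above all 9 others, and the DI plus LPS libraries overlapped those of vehicle and lay below those of DI. The highest value, in LPS replicate 3, rested on 2820 counts. DI plus LPS was 12.0-fold lower than LPS (log2 -3.58 ± 0.45, SE, adjusted p = 4.3e-05), and 6.99-fold lower without LPS replicate 3 (log2 -2.81, adjusted p = 1.3e-06). LPS was 7.95-fold higher than vehicle (log2 2.99 ± 0.44, adjusted p = 4.1e-05), and 4.69-fold higher without that library (adjusted p = 3.7e-06). In DI-treated cells the LPS effect had the other sign, at log2 -0.85 ± 0.41, which was not called (adjusted p = 0.17). It was called without LPS replicate 3, whose removal changes the common spread (adjusted p = 0.019), with only the 2 compared groups (adjusted p = 0.012), by voom (log2 -1.01, adjusted p = 0.0045) and with library totals (log2 -1.45, adjusted p = 0.0087). The difference between the LPS effects was log2 -3.84 ± 0.60 (adjusted p = 0.0013), and -3.09 without LPS replicate 3 (adjusted p = 4.7e-05). DI without LPS left Irf8 at log2 0.26 ± 0.41 against vehicle (adjusted p = 0.85).

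Ratios within a library do not depend on how libraries are scaled. Irf8 reads per Irf1 read were 0.270, 0.320 and 0.416 with DI plus LPS, 1.62, 1.52 and 3.43 with LPS, 7.05, 5.05 and 6.90 with DI and 4.00, 4.28 and 6.67 with vehicle. Both LPS groups lay below both groups without LPS, and the DI plus LPS libraries lay below those of LPS. Irf8 reads per Irf2 read were 0.562, 0.690 and 0.919 with DI plus LPS, 2.53, 2.72 and 9.62 with LPS, 2.93, 2.51 and 2.82 with DI and 1.73, 1.45 and 2.76 with vehicle. Here the DI plus LPS libraries were the lowest of all 12, and the other 3 groups overlapped in part. Dendritic cells also express Irf8. On unscaled library totals their 11 markers summed to 54.8 to 125 CPM with DI plus LPS and 119 to 173 with LPS. The sums were 25.2 to 51.6 with DI and 55.2 to 103 with vehicle. Flt3 was at 0 in all 4 groups, Xcr1 in all but DI plus LPS, Itgae in all but DI, Cd209a in both groups with LPS and Zbtb46 in the LPS group, and the part of such cells in the Irf8 result was not tested.

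Irf1, an activator induced by inflammatory signals, had the highest fold change with LPS alone. Its level was 665, 649 and 740.0 CPM with DI plus LPS, 979, 1062 and 1496 CPM with LPS, 59.2, 76.6 and 65.4 CPM with DI and 69.3, 66.1 and 72.6 CPM with vehicle. The 6 libraries with LPS lay far above the 6 without, the DI and vehicle libraries overlapped, and the DI plus LPS libraries lay below those of LPS. LPS raised it 17.0-fold over vehicle (log2 4.09 ± 0.30, adjusted p = 1.2e-08), and LPS after DI raised it 10.2-fold over DI (log2 3.35 ± 0.29, adjusted p = 1.5e-07). DI plus LPS was 1.72-fold below LPS (log2 -0.78 ± 0.27) and did not pass the test (adjusted p = 0.056); DESeq2 called it (adjusted p = 0.0025), as did the same test with RLE scaling (adjusted p = 0.037). The interaction for Irf1 was log2 -0.73 ± 0.38 (adjusted p = 0.32).

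Irf2, which binds the same elements as IRF1 and is known mainly as its repressor, moved in the same order. It stood at 320.0, 301 and 335 CPM with DI plus LPS, 626, 592 and 533 CPM with LPS, 143, 154 and 160 CPM with DI and 161, 195 and 176 CPM with vehicle. No libraries of neighbouring groups overlapped, although DI and vehicle were separated by less than 1 CPM and their difference did not pass the test (log2 -0.22 ± 0.25, adjusted p = 0.78). LPS raised Irf2 3.30-fold over vehicle (log2 1.72 ± 0.26, adjusted p = 4.9e-05) and 2.09-fold in DI-treated cells (log2 1.06 ± 0.25, adjusted p = 0.0053), the last of which was lost with library totals (log2 0.48, adjusted p = 0.21). DI plus LPS was 1.83-fold below LPS (log2 -0.87 ± 0.25, adjusted p = 0.025), a call that was lost without LPS replicate 1 or 2 or without any single DI plus LPS library (adjusted p 0.07 to 0.11), with library totals (log2 -0.70, adjusted p = 0.1), with no low-count filter (adjusted p = 0.11) and with only the 2 compared groups (adjusted p = 0.092). The interaction for Irf2 was log2 -0.66 ± 0.35 (adjusted p = 0.34), and DESeq2 called it (log2 -0.71, adjusted p = 0.044). Irf1 reads per Irf2 read were 2.08, 2.16 and 2.21 with DI plus LPS, 1.56, 1.79 and 2.81 with LPS, 0.415, 0.497 and 0.408 with DI and 0.431, 0.339 and 0.414 with vehicle. The ratio was therefore higher in every library with LPS than in any without, and it overlapped between DI plus LPS and LPS.

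Irf7, the inducible factor that amplifies type I interferon production, was the member that edgeR called lower with DI without LPS. It stood at 269, 238 and 311 CPM with DI plus LPS, 676, 495 and 469 CPM with LPS, 20.7, 8.43 and 5.67 CPM with DI and 59.4, 37.8 and 39.6 CPM with vehicle. None of the 4 groups overlapped, with LPS highest and DI lowest. DI alone was 3.93-fold below vehicle (log2 -1.97 ± 0.40, adjusted p = 0.0089), and this call was lost without vehicle replicate 1 (adjusted p = 0.062), DI replicate 2 (adjusted p = 0.075) or DI replicate 3 (adjusted p = 0.059). LPS raised Irf7 12.0-fold over vehicle (log2 3.58 ± 0.42, adjusted p = 3.2e-06). From its lower level in DI-treated cells LPS raised it 23.4-fold (log2 4.55 ± 0.44, adjusted p = 5e-07), and these LPS effects were not shown to differ (log2 0.97 ± 0.54, adjusted p = 0.37). DI plus LPS was 2.01-fold below LPS (log2 -1.01 ± 0.38), with adjusted p = 0.083 in all libraries, 0.037 without LPS replicate 3, 0.041 without DI replicate 1, 0.036 by DESeq2 and 0.047 by voom.

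Irf9, the DNA-binding subunit of ISGF3, was lowest with DI alone. Its level was 102, 108 and 132 CPM with DI plus LPS, 82.2, 104 and 116 CPM with LPS, 31.5, 14.7 and 24.7 CPM with DI and 48.4, 63.3 and 43.8 CPM with vehicle. The DI libraries were the lowest and the DI plus LPS and LPS libraries overlapped. DI alone was 2.18-fold below vehicle (log2 -1.13 ± 0.32), which missed the threshold (adjusted p = 0.072) and passed it without LPS replicate 3 (adjusted p = 0.019), by DESeq2 (adjusted p = 0.0092) and voom (adjusted p = 0.0094), with library totals (adjusted p = 0.046) and with only the 2 compared groups (adjusted p = 0.029). LPS raised Irf9 4.81-fold in DI-treated cells (log2 2.27 ± 0.33, adjusted p = 5.5e-05). In vehicle-treated cells LPS raised it 1.94-fold (log2 0.95 ± 0.32, adjusted p = 0.029), but with library totals the value was log2 -0.02, a scaling that moved the median of all genes by -0.92 in this comparison. That call was also lost without vehicle replicate 1, vehicle replicate 3 or LPS replicate 2 (adjusted p = 0.095, 0.11 and 0.067), with no low-count filter (adjusted p = 0.06) and with only the 2 compared groups (adjusted p = 0.056). The interaction was log2 1.31 ± 0.45 (adjusted p = 0.12), and DI plus LPS differed from LPS by log2 0.19 ± 0.32 (adjusted p = 0.74).

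Irf5, which drives Il12b, Il6 and Tnf in inflammatory macrophages, stood at 210, 199 and 198 CPM with DI plus LPS, 212, 187 and 433 CPM with LPS, 121, 96.6 and 107 CPM with DI and 108, 125 and 122 CPM with vehicle. Both groups with LPS lay above both groups without it. LPS replicate 3 lay well above the DI plus LPS libraries, and the other 2 LPS libraries stood on either side of them. LPS raised Irf5 2.32-fold over vehicle (log2 1.21 ± 0.31, adjusted p = 0.0062), 1.73-fold without LPS replicate 3 (adjusted p = 0.016), and the call was lost with library totals (log2 0.17, adjusted p = 0.62). In DI-treated cells the value was log2 0.90 ± 0.31, at the threshold and not called (adjusted p = 0.05). It was called by voom (adjusted p = 0.0014), with only the 2 compared groups (adjusted p = 0.0056) and without any single LPS library (adjusted p 0.0044 to 0.044), and it was log2 0.31 with library totals (adjusted p = 0.44). DI plus LPS against LPS gave log2 -0.44 ± 0.31 (adjusted p = 0.37), and 0.00 without LPS replicate 3.

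Irf3, a latent factor that is activated by phosphorylation, was scarce in these 3′ libraries. It stood at 12.8, 9.81 and 5.91 CPM with DI plus LPS, 12.6, 8.44 and 0 CPM with LPS, 14.7, 10.3 and 10.3 CPM with DI and 10.4, 8.85 and 16.0 CPM with vehicle. All 4 groups overlapped and no comparison called Irf3, with log2 values from -0.49 ± 0.57 to 0.20 ± 0.77. The 0 in LPS replicate 3 allows up to 5.45 CPM, the level of 3 counts in that library, counting error only, so a moderate change of Irf3 was not detectable at this depth. Irf4, known in alternative activation, had 7, 0 and 0 counts with DI plus LPS, none with LPS or DI, and 7, 1 and 0 counts with vehicle. A count of 0 allows up to 0.995, 1.69 and 5.45 CPM in the LPS libraries and 0.354, 0.496 and 0.315 CPM in the DI libraries, so no difference between groups was detectable.

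**Figure D2:**
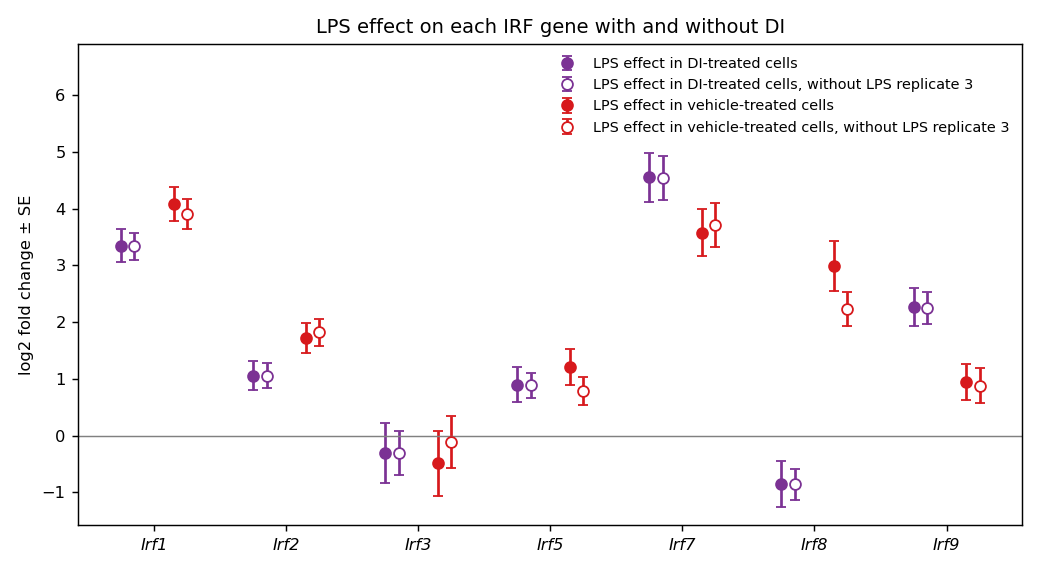
Log2 fold change with SE for LPS in DI-treated cells (DI plus LPS against DI, left of each pair) and in vehicle-treated cells (LPS against vehicle, right) for the 7 members tested; open circles leave out LPS replicate 3. Irf8 lies above 0 in vehicle-treated cells (2.99) and below 0 in DI-treated cells (-0.85), whereas Irf7 and Irf9 have the larger values in DI-treated cells; with library totals Irf9 in vehicle-treated cells was -0.02.

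**Figure D3:**
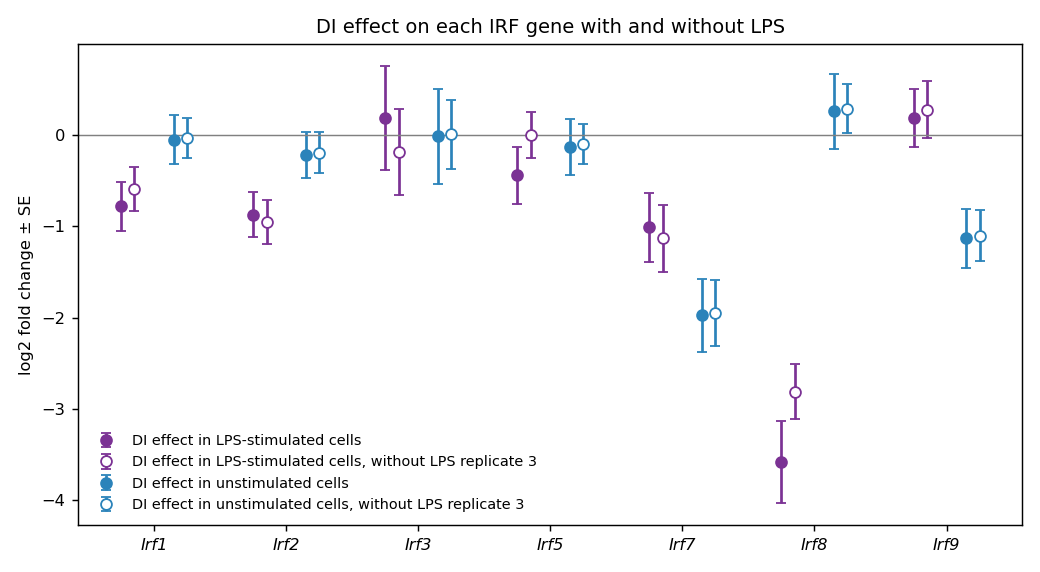
Log2 fold change with SE for DI in LPS-stimulated cells (DI plus LPS against LPS, left of each pair) and in unstimulated cells (DI against vehicle, right) for the 7 members tested; open circles leave out LPS replicate 3. Irf8 has the lowest value under LPS (-3.58, and -2.81 without that library) and Irf7 the lowest without LPS (-1.97).

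Read together with vehicle, the groups gave different orders. For Irf1, Irf2 and Irf7 the order of mean levels was LPS, DI plus LPS, vehicle and DI, and vehicle and DI overlapped for Irf1. Irf5 had the same order, with overlap between the first 2 groups and between the last 2. For Irf8 it was LPS, DI, vehicle and DI plus LPS, and all neighbours overlapped except LPS and DI. For Irf9 it was DI plus LPS, LPS, vehicle and DI, with overlap between the first 2. DI plus LPS stayed above vehicle for Irf1 (9.87-fold, log2 3.30 ± 0.29, adjusted p = 1.9e-07), Irf7 (5.96-fold, log2 2.57 ± 0.40, adjusted p = 0.0001), Irf9 (2.20-fold, log2 1.14 ± 0.32, adjusted p = 0.013) and Irf2 (1.80-fold, log2 0.85 ± 0.25, adjusted p = 0.019). The Irf9 and Irf2 calls were lost with library totals (log2 0.36 and 0.07), and the Irf2 call also with RLE scaling (adjusted p = 0.056) and with no low-count filter (adjusted p = 0.076). Without vehicle replicate 1 or vehicle replicate 3 both were lost, as they were without DI plus LPS replicate 3, and Irf2 also without DI plus LPS replicate 1 (adjusted p 0.054 to 0.087 in these fits). Irf8 was not called in this comparison (log2 -0.59 ± 0.41, adjusted p = 0.33), but it was called lower with library totals (log2 -1.39, adjusted p = 0.0084) and by voom (log2 -0.78, adjusted p = 0.017). Irf5 was not called either (log2 0.77 ± 0.31, adjusted p = 0.078); voom called it (adjusted p = 0.0025), as did the fits without LPS replicate 3 (adjusted p = 0.009) and with only the 2 groups (adjusted p = 0.017), and with library totals it was log2 -0.01. All these comparisons share libraries, so their values stand side by side and are not independent. The share of all genes whose libraries do not overlap was not computed for any comparison, so separation of libraries is given here as description only.

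Several members overlap other genes in the mouse annotation (GENCODE, GRCm38), and the strand setting of the counting is not given. Irf7 (chromosome 7, 141262706 to 141266481, - strand) overlaps Phrf1 on the other strand, which stayed at log2 0.22 ± 0.30 for DI against vehicle and 0.09 ± 0.31 for LPS against vehicle. Irf9 (chromosome 14, 55603571 to 55610030, + strand) overlaps Rnf31 on the same strand, which was itself higher with LPS than with vehicle (log2 2.16 ± 0.61, adjusted p = 0.01) and with DI plus LPS than with DI (log2 2.12 ± 0.60, adjusted p = 0.018). Irf3 (chromosome 7, 44997648 to 45002848) and Irf5 (chromosome 6, 29526625 to 29541871), both on the + strand, overlap Bcl2l12 and Tnpo3 on the other, neither called for LPS against vehicle (adjusted p = 0.12 and 0.19). Tnpo3 was higher with DI plus LPS than with vehicle (log2 0.91 ± 0.29, adjusted p = 0.029). Irf1 (chromosome 11, 53770014 to 53778374), Irf2 (chromosome 8, 46739732 to 46847458) and Irf8 (chromosome 8, 120736358 to 120756694), all on the + strand, overlap predicted genes, and Irf4 (chromosome 13, 30749226 to 30766976, + strand) overlaps none. How reads were split between overlapping genes was not tested.

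The genes whose log2 CPM over the 12 libraries of experiment 1 was most like each member were taken by Pearson correlation among the 10285 genes tested, as a description. For Irf1 they were Slc7a2, a cationic amino acid transporter (r = 0.996), Nfkbia, the NF-kB inhibitor (0.994), and Rab11fip1 (0.993). For Irf2 they were Mxd1 (0.995), the hexose transporter Slc2a6 (0.992) and Ifnb1, interferon beta (0.989). Irf7 was most like Oasl2 (0.990), Plaat3 (0.987) and Phf11a (0.984), and Irf9 like Rtp4 (0.960), Trim14 (0.958) and Trex1 (0.951). Irf8 was most like Rnd1 (0.970), Sertad3 (0.964) and Stimate (0.954), and Irf5 like Ube2n (0.983), Tent5a (0.974) and 2310034C09Rik (0.973). Irf3, at its low counts, was most like Usp45 (0.986), Avl9 (0.985) and Ercc6 (0.985). The 12 points share group, depth and the LPS group's spread.

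Of 32 genes of signalling to IRF3, IRF5 and IRF7, DI plus LPS against LPS called 4 higher and 6 lower. Among all genes 8.38% were higher and 7.53% lower. Here and below, each share of all genes is edgeR's with all libraries, and other settings called other numbers. DESeq2 called 10 of the list lower, and 1111 of all 10285 genes lower where edgeR called 774. The list median was log2 -0.31, against 0.13 over all genes tested. Tlr9, the receptor for DNA, was 8.40-fold lower (log2 -3.07 ± 0.37, adjusted p = 2.8e-05), Sting1 5.14-fold lower (adjusted p = 0.0014) and Tlr3, the receptor for double-stranded RNA, 4.21-fold lower (adjusted p = 0.00045). DI alone called 4 of the 32 lower, against 1.51% of all genes. Among them were Ikbke, a kinase of IRF3 and IRF7 (log2 -1.87 ± 0.30, adjusted p = 0.0015), and Tlr9 (log2 -1.81 ± 0.35, adjusted p = 0.0066). Voom called 8 of the 32 lower, and 762 of all genes where edgeR called 155. LPS alone called 15 higher and 4 lower, against 16.0% and 18.4% of all genes. The RNA sensor Ifih1 led at 47.2-fold higher (log2 5.56 ± 0.47, adjusted p = 6e-08). Lower calls in the list were 7 by DESeq2 and 2 by voom, which called 2547 and 1595 of all genes lower.

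Of the 19 interferon, receptor and JAK-STAT genes tested of 24 listed, DI plus LPS against LPS called 8 lower, against 7.53% of all genes. Their median was log2 -1.01, and DESeq2 called 12 of them lower, with 1111 of all genes. LPS alone called 15 of the 19 higher and 1 lower, against 16.0% and 18.4% of all genes. Stat5a was lower (log2 -3.32 ± 0.36, adjusted p = 1.2e-05) and the feedback inhibitor Socs1 7.57-fold lower (adjusted p = 0.00013). Interferon beta itself, Ifnb1, had 20 counts with DI plus LPS, 91 with LPS and 0 with DI or vehicle. It was at least 13.9-fold higher with DI plus LPS than with DI and at least 110.4-fold higher with LPS than with vehicle, taking 3 counts over the group as the floor, and 8.90-fold lower with DI plus LPS than with LPS (adjusted p = 0.012). DI alone called Socs3, another feedback inhibitor, 4.23-fold higher (adjusted p = 0.018).

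Among 22 DNA-binding partners and cofactors, DI plus LPS against LPS called 2 higher and 3 lower, with a median of log2 -0.47. Among all genes 8.38% were higher and 7.53% lower, so the counts were near the share over all genes. Lower calls were 7 without LPS replicate 3, where 963 of all 10628 genes were lower. DESeq2 called 5 lower, with 1111 of all genes, and voom called 1 higher, with 569 of all genes. The 3 that edgeR called lower in all libraries were Batf, Ikzf1, which partners IRF8 and IRF4, and Etv6. Batf was 14.6-fold lower (log2 -3.87 ± 0.61, adjusted p = 0.00031) and Ikzf1 13.9-fold lower (log2 -3.79 ± 0.51, adjusted p = 8.7e-05). Etv6 was 6.45-fold lower (adjusted p = 0.0023). Batf and Ikzf1 were also the 2 called for the interaction, which 1.52% of all genes had lower, at log2 -4.55 ± 0.85 and -3.55 ± 0.67 (adjusted p = 0.0059 and 0.0068). For DI without LPS, Spi1, which encodes PU.1, the partner of IRF8, was at 93.6 CPM with DI and 129 CPM with vehicle (log2 -0.47 ± 0.25, adjusted p = 0.44). Values of Spi1 in the groups with LPS are not reported here.

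The lists of known targets share some genes, so their counts are not independent, and no difference between lists was tested. Of 30 targets of ISGF3, IRF3 and IRF7, DI plus LPS against LPS called 5 lower, against 7.53% of all genes (median log2 -0.73). They were led by Isg15 at 5.51-fold lower (adjusted p = 0.013), Ifi44 at 2.91-fold (adjusted p = 0.0024) and Ifit2 at 2.67-fold (adjusted p = 0.022). Lower calls were 12 without LPS replicate 3, where 963 of all 10628 genes were lower. DESeq2 called 10 lower and voom 9, with 1111 and 729 of all genes. LPS alone called 29 of these 30 higher and LPS after DI all 30, against 16.0% and 11.4% of all genes, the medians being log2 5.45 and 5.08. DI without LPS called 6 lower and 2 higher, against 1.51% and 1.33% of all genes. Rtp4 was 5.90-fold lower (adjusted p = 0.0014), Ifi44 4.12-fold lower (adjusted p = 0.0014) and Cxcl10 7.64-fold higher (adjusted p = 0.0025). DESeq2 called 10 of the 30 lower, with 351 of all genes lower. Voom called 12 of the 30 lower and 4 higher, with 762 of all genes lower and 724 higher. Of 27 IRF1 targets, DI plus LPS against LPS called 16 lower, against the same 7.53% (median log2 -1.37), led by Nos2, inducible nitric oxide synthase, at 29.7-fold (adjusted p = 0.0003), Cxcl11 at 16.8-fold (adjusted p = 2.2e-05) and Cxcl9 at 16.4-fold lower (adjusted p = 1.2e-05). The interaction called 10 of the 27 lower, against 1.52% of all genes. LPS alone called 26 of the 27 higher, against 16.0% of all genes. Of the 10 cytokine targets of IRF5 and IRF8 tested of 11 listed, DI plus LPS against LPS called 8 lower, again against 7.53%. Their median was log2 -2.58, and LPS alone called all 10 higher. The share called lower among all genes that LPS raised was not computed. The shares over all genes therefore do not separate IRF targets from other genes raised by LPS. Il12b, the p40 chain of IL-12 and a gene IRF8 is known to drive, was 27.9-fold lower (log2 -4.80 ± 0.52, adjusted p = 1.2e-05). Il10 was 27.4-fold lower on 7 counts with DI plus LPS and 95 with LPS (log2 -4.77 ± 1.01, adjusted p = 0.0037). Tnf was not called (log2 0.36 ± 0.39, adjusted p = 0.58).

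Of the 14 macrophage targets of IRF8 and PU.1, DI plus LPS against LPS called 5 higher, against 8.38% of all genes (median log2 0.47). Pla2g7 was 4.14-fold higher (adjusted p = 0.0009) and Slc11a1 3.04-fold higher (adjusted p = 0.0027). Of the 8 genes tested of 13 listed as IRF4 targets in alternative activation, 1 was higher and 4 lower in the same comparison, against 8.38% and 7.53% of all genes, among them Ccl22 with 7 counts with DI plus LPS and 104 with LPS (28.9-fold, adjusted p = 0.0016) and Fscn1 with 7 and 55 counts (17.9-fold, adjusted p = 0.012). LPS alone called 5 of these 8 higher and 1 lower, against 16.0% and 18.4% of all genes. Ccl22 and Fscn1 are also markers of activated dendritic cells. The macrophage marker sum, on unscaled library totals, was 7498 to 9813 CPM with DI plus LPS and 6331 to 7909 CPM with LPS. Its part in these counts was not tested.

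**Figure D4:**
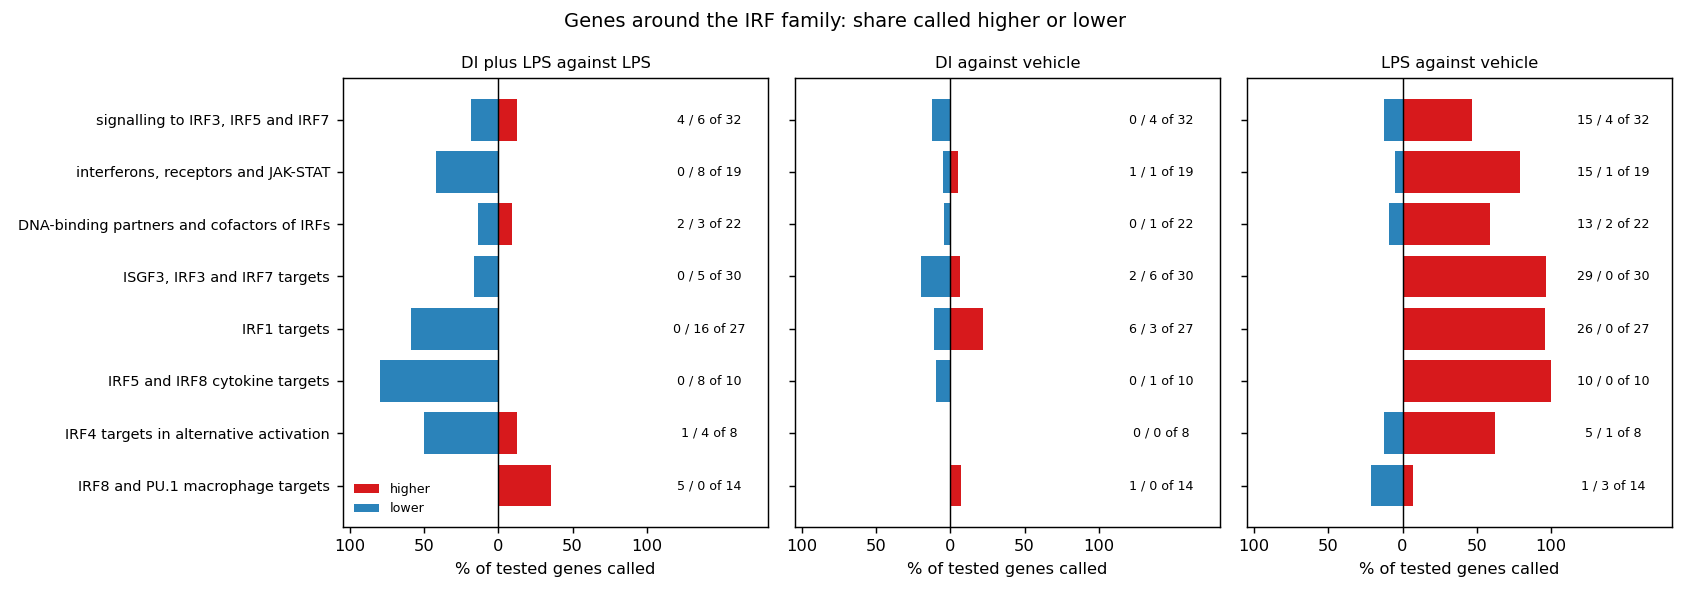
Share of the tested genes of each list called higher (red, right of 0) or lower (blue, left of 0) for DI plus LPS against LPS, DI against vehicle and LPS against vehicle; the text in each row gives higher and lower calls of the genes tested. For DI plus LPS against LPS, 16 of 27 IRF1 targets and 8 of 10 IRF5 and IRF8 cytokine targets were lower, against 7.53% of all genes. LPS alone called 26 of these 27 and all 10 higher, and the share among all genes raised by LPS was not computed. Of 30 targets of ISGF3, IRF3 and IRF7, 5 were lower. Without LPS replicate 3 this last count was 12, and 963 of all 10628 genes were lower.

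In experiment 2, loss of Irg1 moved no member past the threshold of edgeR's quasi-likelihood test, against 0.0105% of all 9491 genes tested called higher and 0.0527% lower (1 and 5 genes; 3 and 6 with library totals). At an unadjusted p under 0.05 by edgeR there was 1 of 7 members, Irf2, against 665 of all 9491 genes. Neither DESeq2 nor voom called any member. Replicate numbers were taken as pairs in this experiment from correlations in these same data, as the labels do not state a pairing. With the number as a block Irf2 was higher and Irf5 lower. In that fit 2.90% of all genes were called higher and 3.36% lower (275 and 319 genes).

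Irf2 stood at 320.0, 351 and 380 CPM in Irg1-/- libraries and 227, 243 and 256 CPM in wild-type libraries. The groups did not overlap, and Irf2 was 1.45-fold higher without Irg1 (log2 0.53 ± 0.17, adjusted p = 0.54, and 0.00023 with the replicate block). Irf1 was at 1082, 1143 and 1062 CPM in Irg1-/- libraries and 971, 1106 and 1148 CPM in wild-type libraries, which overlapped (log2 0.03 ± 0.17, adjusted p = 0.99). Irf1 reads per Irf2 read were accordingly 3.38, 3.26 and 2.80 in Irg1-/- libraries and 4.27, 4.55 and 4.49 in wild-type libraries, with no overlap. Irf5 was at 131, 159 and 177 CPM in Irg1-/- libraries and 169, 213 and 209 CPM in wild-type libraries, and overlapped (log2 -0.34 ± 0.19, adjusted p = 0.83, and 0.04 with the block). Irf8 was at 883, 958 and 673 CPM in Irg1-/- libraries and 1165, 1004 and 859 CPM in wild-type libraries, lower in each of the 3 same-numbered pairs (log2 -0.27 ± 0.20, adjusted p = 0.92, and 0.068 with the block). Irf7 was likewise lower in all 3 pairs, at 601, 909 and 952 CPM in Irg1-/- libraries and 744, 1053 and 1033 CPM in wild-type libraries (log2 -0.20 ± 0.22, adjusted p = 0.95).

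Irf9 was at 85.9, 51.5 and 88.3 CPM in Irg1-/- libraries and 62.5, 54.0 and 89.8 CPM in wild-type libraries (log2 0.13 ± 0.26, adjusted p = 0.98). Irf3 was at 12.4, 15.4 and 10.7 CPM in Irg1-/- libraries and 12.0, 14.4 and 13.1 CPM in wild-type libraries (log2 -0.04 ± 0.25, adjusted p = 0.99). Both overlapped between the genotypes. Irf4 had 0, 0 and 4 counts in Irg1-/- libraries and 0, 0 and 1 in wild-type libraries. Without the replicate block, the 30 targets of ISGF3, IRF3 and IRF7 had no call by edgeR, DESeq2 or voom. The 8 tested cytokine genes of IRF5 and IRF8 had none either. By edgeR 3 genes of each list had an unadjusted p under 0.05, as did 665 of all 9491 genes. The list medians were log2 -0.13 and -0.06, against 0.01 over all genes. The B and plasma cell markers, on unscaled library totals, summed to 16.5 to 21.5 CPM in Irg1-/- libraries and 23.1 to 29.2 CPM in wild-type libraries. The part of these cells was not tested. Without the block the single call among 26 tested IRF1 targets was Acod1, the deleted gene. DESeq2 called 1 more, which was higher, when it called 13 of all 9491 genes higher.

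With the replicate block, where 2.90% of all genes were higher and 3.36% lower in Irg1-/- libraries, 1 of the 30 targets of ISGF3, IRF3 and IRF7 was called higher and 8 lower. Ifit3b, whose reads may be shared with its near copy Ifit3, was 2.02-fold lower (adjusted p = 0.002 with the block and 0.4 without) and Oasl1 1.48-fold lower (adjusted p = 0.00016 with the block and 0.67 without). Of the 26 IRF1 targets the block called 4 higher and 6 lower, Acod1 among them; Irgm1, an interferon-induced GTPase, was 2.12-fold higher (adjusted p = 4.7e-10 with the block and 0.059 without) and the cytokine Il15 1.70-fold lower (adjusted p = 6.6e-07 with the block and 0.4 without). Of the 8 cytokine targets of IRF5 and IRF8 it called 1 higher, Il1b at 1.47-fold (adjusted p = 0.0035), and 2 lower, with Il12b at 1.96-fold lower (adjusted p = 2.6e-09 with the block and 0.27 without). It called 1 higher and 2 lower of the 32 signalling genes, 2 higher and 1 lower of 21 partners and cofactors, 2 lower of 7 IRF4 targets and 4 lower of the 14 targets of IRF8 and PU.1. None of the 20 interferon, receptor and JAK-STAT genes tested was called with the block. The 2 experiments differ in stimulus, time and the source of itaconate, and their tables were scaled separately, so their levels are not compared.

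**Figure D5:**
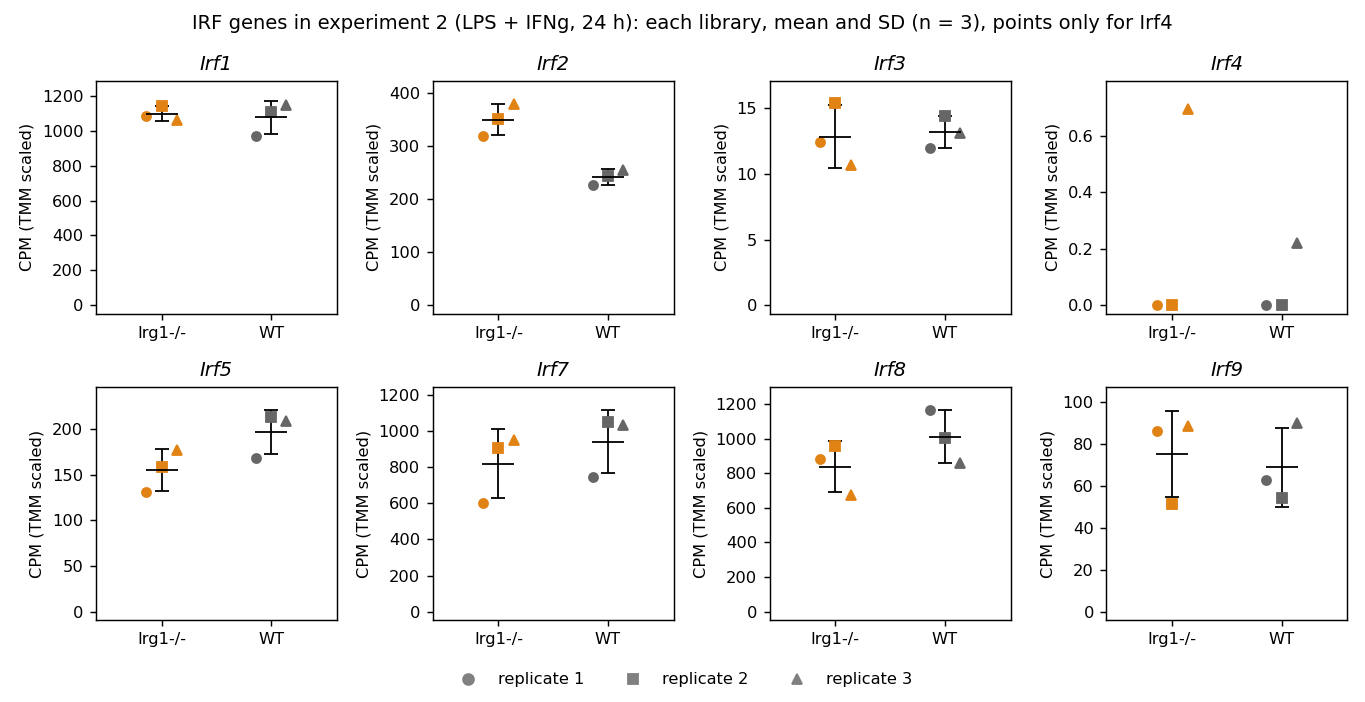
Level of each IRF gene in the 6 libraries of experiment 2, in CPM on a linear axis, Irg1-/- left of wild type; points are libraries, the bar and whiskers are the mean and SD (n = 3), and Irf4 has points only. Irf2 is the member whose libraries do not overlap, at 320.0 to 380 CPM in Irg1-/- and 227 to 256 CPM in wild type. Its difference did not pass edgeR's test without the replicate block (log2 0.53 ± 0.17, adjusted p = 0.54). The share of all genes without overlap was not computed.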

How the data were processed

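RNA of 18 macrophage libraries was primed with barcoded oligo-dT, pooled and sequenced from the 3′ end as strand-specific libraries, per the labels' protocols. The authors deposited raw counts per Entrez gene, 1 table per experiment, made with STAR and HTSeq on build mm10 per the submitters' processing notes, which also name DESeq2. Versions, annotation and the strand option of the counting are not given in the sources used here. Since no source mentions molecular identifiers, PCR copies may be counted more than once, and floors cover counting error only. Of 24052 identifiers, 23969 were matched to a symbol.

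From these counts, edgeR 4.0.16 (R 4.3.3) tested each experiment by its quasi-likelihood test, two-sided, with TMM scaling, a minimum count of 10 in filterByExpr, all groups of the experiment in 1 fit and Benjamini-Hochberg adjustment over all genes tested (10285 and 9491). The threshold for a call was 0.05 on the adjusted p. The SE is the log2 fold change divided by the root of its F value, and n is 3 libraries a group. Alternatives were DESeq2 1.42.0, RLE scaling, library totals, no filter, voom with quality weights (limma 3.58.1), the replicate number as a block, only the 2 compared groups, and leaving out each library.

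The labels share replicate numbers across groups. Deviations of same-numbered libraries correlated at 0.335 to 0.436 in all 3 pairs of experiment 2, so the numbers were taken as pairs there on the data alone, while in experiment 1, at -0.129 to 0.203, 5 of 18 pairs were above 0.1 and they were not.

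The members and gene lists were chosen with earlier results of these data known. The text names the 8 listed members, from each list at most 3 called genes with the largest change and at most 1 not called with the smallest adjusted p, the 3 genes most like each tested member, and Acod1. Some genes of the lists that meet this rule are not reported here by name. Symbols, coordinates and promoters come from RefSeq and GENCODE tables of GRCm38.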

Additional observations from a re-analysis of the deposited data

Results flagged for a closer look

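The response of Irf8 to LPS differed between DI-treated and vehicle-treated cells. The interaction term was log2 -3.84 ± 0.60 (edgeR, adjusted p = 0.0013): the LPS effect was -0.85 in DI-treated cells and 2.99 in vehicle-treated cells. It kept its sign and its call in every alternative, leaving out each library included, and was -3.09 without LPS replicate 3. It is listed because the difference between the 2 LPS responses itself passed the test by edgeR, as no other member's did; DESeq2 also called Irf2 (log2 -0.71, adjusted p = 0.044), which edgeR did not (adjusted p = 0.34). The cause was not tested.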

How the results depend on the processing

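Of 18 member results that passed the test, 11 kept their direction and their call under every alternative that was run. They were Irf1 and Irf7 in the 3 comparisons of LPS or DI plus LPS with an unstimulated group, Irf2 and Irf8 for LPS against vehicle, Irf9 for DI plus LPS against DI, and Irf8 for DI plus LPS against LPS and for the interaction. Of 31 that did not pass, 21 passed under no alternative. The called value that reversed was Irf9 for LPS against vehicle, at log2 -0.02 with library totals. Values not called that reversed were Irf3 for DI against vehicle at 0.03 with no low-count filter and 0.02 with only the 2 compared groups, and Irf5 with library totals at -0.01 for DI plus LPS against vehicle and 0.14 for the interaction. Leaving out single libraries also reversed values near 0 that were not called: for DI against vehicle Irf1 ran from -0.15 to 0.04 and Irf3 from -0.20 to 0.28, for DI plus LPS against LPS Irf3 from -0.18 to 0.79 and Irf5 from -0.59 to 0.00, for the interaction Irf3 from -0.19 to 0.78 and Irf5 from -0.49 to 0.10, and for Irg1 knockout against wild type Irf1 from -0.04 to 0.09, Irf3 from -0.18 to 0.09 and Irf9 from -0.02 to 0.38. Numbers of genes called also moved with the setting. Library totals gave 5803 against 3529 for LPS against vehicle and 4093 against 2528 for DI plus LPS against vehicle. Only the 2 compared groups gave 2108 for LPS against vehicle, 1013 against 292 for DI against vehicle, 653 against 1636 for DI plus LPS against LPS and 3196 against 1948 for DI plus LPS against DI. Voom gave 1486 for DI against vehicle, 3657 for DI plus LPS against DI, 4506 for DI plus LPS against vehicle and 485 against 299 for the interaction. DESeq2 gave 654 for DI against vehicle, 816 for the interaction and 36 against 6 for the knockout, and no filter gave 458, 497 and 40 for the same 3. Leaving out single libraries gave 140 to 803 for DI against vehicle, the lowest without vehicle replicate 1 and the highest without LPS replicate 3, 885 to 1948 for DI plus LPS against LPS, the lowest without DI plus LPS replicate 1, 132 to 806 for the interaction, the lowest without DI plus LPS replicate 1 and the highest without LPS replicate 3, and 3 to 6 for the knockout, the lowest without replicate 3 of either genotype. The replicate block gave 594 for the knockout, where it added the calls of Irf2 and Irf5. In experiment 1, where the numbers were not taken as pairs, it added 1 member call, Irf5 for DI plus LPS against DI (adjusted p = 0.048), and ended none. Library totals shifted the median log2 value of all genes by -0.92 for LPS against vehicle, -0.20 for DI against vehicle, 0.14 for DI plus LPS against LPS, -0.59 for DI plus LPS against DI, -0.78 for DI plus LPS against vehicle and 0.34 for the interaction, and RLE scaling by at most -0.17. The causes were not tested.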
